A study of Mus musculus with 48 samples.

Results

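Transcripts of 10 genes of the p53 pathway were followed in cultured kidney slices: Trp53, Cdkn1a, Mdm2, Ccng1, Trp53inp1, Bax, Bbc3, Phlda3, Eda2r and Fas. They were picked by name, with earlier results of these data known, and each symbol matched 1 Ensembl gene ID among the 55487 IDs of the count table. RNA was sequenced from kidney slices kept and treated outside the body, cut from male C57BL/6J or DBA/2J mice, the founders of the BXD recombinant inbred panel. The 48 libraries form 16 groups of 3, given by 2 strains and 8 conditions. Control slices, slices given tunicamycin (an inhibitor of N-linked glycosylation that perturbs protein folding) and slices given cyclosporin A (a calcineurin inhibitor with known kidney toxicity) were taken at 6 h and at 24 h. The remaining conditions, at 24 h by their titles, were normoxia, which the labels call a model of ischemia, and normoxia-hyperoxia, which they call a model of reperfusion. By their titles, control and drug slices belong to a nephrotoxicity set, and the oxygen conditions to ischemia and reperfusion sets. Where an oxygen condition is compared with controls, the oxygen label and the set therefore cannot be told apart. The sources used here do not give ages, doses, the oxygen level in which controls were kept, or when the oxygen was switched. The replicate numbers are described as biological, but nothing says that they mark separate mice, so the p-values measure the spread between these samples.

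The transcription factor p53, encoded by Trp53 in the mouse, is kept low by the ubiquitin ligase Mdm2 and accumulates after DNA damage, oxidative stress and other injuries. It then raises genes that stop the cell cycle, repair DNA or start apoptosis, and it also raises Mdm2, which closes a negative feedback loop. In the kidney, p53 is known for its activity in tubule cells after ischemic and toxic injury. Its activity is set largely at the protein level, and protein was not measured here.

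p53 binds DNA through pairs of a 10-base motif, the p53 decamer, which reads the same on both strands. RefSeq start-site windows on GRCm38.p6, from 250 bases before to 50 bases after each start, were held for 9 of the 10 genes in 12 entries, and Trp53inp1 had none. The decamer consensus was present in 5 of the 12 entries, against 2745 of 32851 windows of all genes (8.36%). These were 1 window each of Trp53, Cdkn1a, Mdm2, Ccng1 and Bax, and none of those of Bbc3, Phlda3, Eda2r or Fas. A pair of decamers separated by 0 to 13 bases was searched as the full site, and 24 of 32851 windows held one (0.0731%). The only window of these 10 genes that did was the upstream Cdkn1a start at chr17:29090729-29091028 on the plus strand, where the decamers are 12 bases apart in a span of 32 bases. It is shown because Cdkn1a had the largest log2 fold change of the 10 genes, with the decamers in capitals:
Cdkn1a upstream start: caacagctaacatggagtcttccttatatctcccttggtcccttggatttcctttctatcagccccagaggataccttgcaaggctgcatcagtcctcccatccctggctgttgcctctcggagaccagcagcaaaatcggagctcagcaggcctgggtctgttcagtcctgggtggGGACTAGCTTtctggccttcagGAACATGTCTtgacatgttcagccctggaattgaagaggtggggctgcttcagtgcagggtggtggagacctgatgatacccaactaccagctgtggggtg
The second Cdkn1a window, at chr17:29093519-29093818, held no decamer. The decamers of the other 4 genes are shown with 10 bases on each side, to set the Cdkn1a pair beside the single motifs. They lie at chr11:69580274-69580303 on the plus strand for Trp53, and on the minus strand at chr10:117710925-117710954 for Mdm2, chr11:40755452-40755481 for Ccng1 and chr7:45467080-45467109 for Bax:
Trp53: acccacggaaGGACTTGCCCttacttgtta
Mdm2: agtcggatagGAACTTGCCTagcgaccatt
Ccng1: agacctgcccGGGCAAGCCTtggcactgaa
Bax: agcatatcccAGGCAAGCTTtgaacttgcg
Only exact matches to the consensus were marked. In the upstream Cdkn1a window, the letters tgacatgttc directly follow GAACATGTCT and depart from the consensus at their first base only. They were therefore left in lower case, and pairs with such a departure were not counted. A match describes the letters only, and binding was not measured. Known p53 sites outside these windows, such as those within introns, were not searched.

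Total counts per library, in units of 1e6 reads, ranged from 5.62 to 25.1 with a median of 19.6, and the lowest belonged to DBA/2J normoxia-hyperoxia replicate 2. Markers of every kidney cell class checked (proximal tubule, thick ascending limb and distal tubule, collecting duct, podocyte, endothelium, fibroblast and pericyte) were detected in all 16 groups, as were those of leukocytes and dividing cells, with no listed marker at 0 in any group. The summed proximal tubule markers (6 genes) moved with condition: 7516 to 18195 normalized counts per 1e6 reads (CPM) in 6 h controls, 1077 to 4462 in 24 h controls, 26068 to 41676 under normoxia and 532 to 2079 under normoxia-hyperoxia. Over all libraries, Kap held 6537750 counts of this list and Slc34a1, the next highest, 1838850, so these sums weigh Kap most. Leukocyte markers (5 genes) summed to 56.2 to 86.4, 82.2 to 130.0, 35.4 to 58.2 and 74.5 to 155 CPM in the same order, and markers of dividing cells (4 genes) to 13.7 to 40.3, 5.36 to 23.5, 11.6 to 32.7 and 14.9 to 45.04. The other classes moved as well. In the same order, thick ascending limb and distal tubule markers summed to 6550 to 13854, 1779 to 4720, 3975 to 17328 and 11671 to 21346 CPM, and collecting duct markers to 318 to 434, 96.8 to 163, 242 to 545 and 498 to 764. Podocyte markers summed to 1308 to 2132, 545 to 1231, 467 to 1059.5 and 1035 to 1955 CPM, endothelium to 583 to 1393, 497 to 1202, 278 to 756 and 873 to 1295, and fibroblast and pericyte to 135 to 388, 77.1 to 126, 45.5 to 156 and 89.4 to 193. The share of counts in mitochondrial genes was 14.8 to 16.3%, 5.96 to 7.87%, 22.8 to 25.6% and 12.2 to 16.6% in C57BL/6J in that order, and 8.05 to 8.32%, 3.39 to 3.60%, 11.8 to 12.8% and 10.98 to 17.4% in DBA/2J. Under normoxia the strains did not overlap in any list. In C57BL/6J and DBA/2J in turn, proximal tubule markers summed to 26068 to 32279 and 36894.5 to 41676 CPM. Thick ascending limb and distal tubule gave 11996 to 17328 and 3975 to 5700, and collecting duct 463 to 545 and 242 to 277. Podocyte gave 814 to 1059.5 and 467 to 586, and endothelium 536 to 756 and 278 to 445. Dividing cells gave 11.6 to 14.1 and 23.4 to 32.7. The part of these shifts and strain differences in the results below was not tested. In slices of mixed cells, fewer cells of a type and less RNA per cell cannot be told apart.

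Most of the 10 genes changed with culture time and between oxygen conditions, by amounts that ranged widely, and none was called with either drug. Values for single libraries are CPM after TMM normalization (trimmed mean of M-values) across the 48 libraries. Log2 fold changes (log2FC) are means over both strains, and a gene counts as changed at an adjusted p under 0.05 (edgeR quasi-likelihood test, Benjamini-Hochberg adjustment over all genes tested). From 6 h to 24 h in controls, all 10 genes changed, 9 upward and Fas downward, where 72% of the 16962 genes tested changed and 34.7% rose. Under normoxia, 8 of 10 were lower than in 24 h controls and 0 higher, where 82% of all genes changed and 39.7% were lower. Normoxia-hyperoxia against 24 h controls gave 8 lower and 1 higher (Fas), with 68.2% of all genes changed and 34.1% lower. In both comparisons with 24 h controls, the oxygen label cannot be told apart from the set that the titles name. Normoxia-hyperoxia against normoxia gave 7 higher and 2 lower, where 73.5% of all genes changed and 37% were higher. Since most genes changed in these 4 comparisons, the number of the 10 that passed is close to the background, and the direction and size are what the values below describe. The median log2FC of the 10 genes was 0.97, -1.28, -0.85 and 0.52 in those comparisons, beside -0.02, 0.05, 0.00 and 0.02 over all genes tested. All 10 genes passed the filter on low counts in every comparison. Counted by libraries, 7 of the 10 were higher at 24 h than at 6 h without overlap in both strains and 1 lower, where 26.9% and 27.3% of all genes were. Under normoxia against 24 h controls 8 were lower without overlap (33.1% of all genes). Under normoxia-hyperoxia 7 were lower and 1 higher than in 24 h controls (25.2% and 23.4%), and 6 were higher and 1 lower than under normoxia (26.6% and 27.2%).

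**Figure D1:**
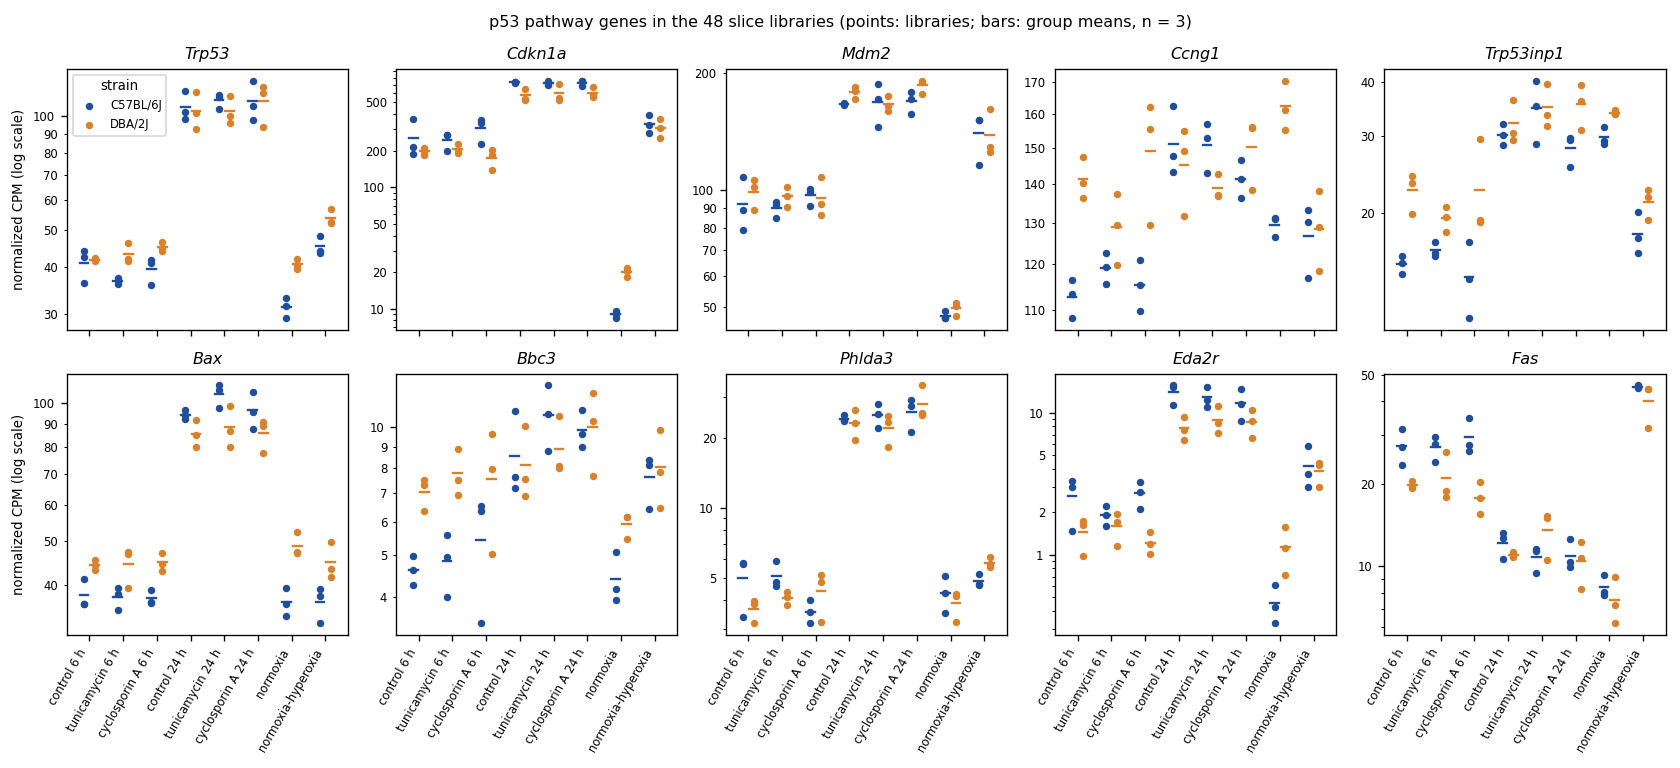
Normalized CPM (log axis) of the 10 genes in each of the 48 libraries, by condition and strain, with bars at group means. Cdkn1a lies between 8.33 and 21.4 CPM in the normoxia libraries and at 527 or above in the 24 h controls.

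Trp53 itself was highest in the 24 h control and drug groups. Its values were 117, 103 and 98.4 CPM in C57BL/6J 24 h controls and 116, 92.5 and 102 in DBA/2J, against 42.5, 43.9 and 36.1 and 41.4, 41.7 and 42.2 at 6 h. No 24 h control library overlapped a 6 h control library, and the rise was 1.32 (log2FC, SE 0.074, edgeR adjusted p = 1.31e-09). Normoxia gave 29.2, 31.4 and 33.1 CPM in C57BL/6J and 40.3, 42 and 39.5 in DBA/2J, lower than the 24 h controls by a log2FC of -1.51 (SE 0.0633, edgeR adjusted p = 2.82e-12). With normoxia-hyperoxia the values were 43.9, 43.6 and 48.3 CPM and 52.6, 52.1 and 56.7, which lay above normoxia without overlap (log2FC 0.44, SE 0.0556, edgeR adjusted p = 3.35e-06). They stayed below the 24 h controls (log2FC -1.09, SE 0.0655, edgeR adjusted p = 1.91e-09). In the order of the 16 group means, the 6 groups of controls and drugs at 24 h came first, between 103 and 110 CPM, and did not separate from each other. C57BL/6J normoxia came last, below every library of the next group.

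Mdm2, the ligase that marks p53 for degradation, spanned a narrower range than Cdkn1a. It stood at 167, 166 and 168 CPM in C57BL/6J 24 h controls and at 184, 171 and 180 in DBA/2J, and at 6 h at 78.9, 108 and 88.7 and at 89, 106 and 102. The rise of 0.84 (SE 0.0756, edgeR adjusted p = 1.46e-07) came without overlap in either strain. Normoxia libraries held 48.7, 46.9 and 46.7 CPM and 47.3, 50.1 and 51.1, the lowest of all groups in both strains (log2FC -1.79 against 24 h controls, SE 0.0465, edgeR adjusted p = 1.48e-14). Normoxia-hyperoxia libraries held 152, 116 and 152 CPM and 129, 125 and 161, above normoxia by 1.49 (SE 0.0795, edgeR adjusted p = 1.64e-10) and below the 24 h controls by a log2FC of -0.31 (SE 0.0777, edgeR adjusted p = 0.0022), or by -0.48 with scaling by library totals, which moved the median of all genes by -0.17 there. Per kilobase of exon, Mdm2 reached 32.8 CPM in C57BL/6J 24 h controls and 9.33 under normoxia.

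Ccng1, which encodes cyclin G1, a partner of Mdm2 and of protein phosphatase, had the narrowest range of the 10 genes. All group means lay between 113 and 162 CPM. The mean change from 6 h to 24 h was 0.21 (SE 0.0612, edgeR adjusted p = 0.00594), with 0.41 in C57BL/6J (edgeR adjusted p = 0.000868) and 0.02 in DBA/2J (0.89). With scaling by library totals, which moved the median of all genes by 0.21 in this comparison, the mean change was 0.43. The difference between the strains did not pass in edgeR (-0.39, SE 0.122, adjusted p = 0.177) and did in DESeq2 (-0.43, adjusted p = 0.0437). Normoxia differed from the 24 h controls by a log2FC of 0.01 (SE 0.0536, edgeR adjusted p = 0.854), a mean of opposite effects in the strains: -0.22 in C57BL/6J (edgeR adjusted p = 0.0157) and 0.24 in DBA/2J (edgeR adjusted p = 0.009). With counts scaled by library totals alone, the mean effect was -0.26 (edgeR adjusted p = 0.000217), as that scaling moved the median of all genes by -0.27 in this comparison. The strain difference in effect was then 0.35 (edgeR adjusted p = 0.0343), so the opposite signs were not kept and both strains were lower. Normoxia-hyperoxia was lower than normoxia by a log2FC of -0.22 (SE 0.0557, edgeR adjusted p = 0.0026), which did not pass with scaling by totals (edgeR adjusted p = 0.0526).

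Cdkn1a encodes p21, the inhibitor of cyclin-dependent kinases that carries out much of the p53 cell cycle arrest, and it had the largest difference of the 10 genes in each of the 3 comparisons that involve normoxia. In 24 h controls it stood at 725, 737 and 736 CPM in C57BL/6J and at 527, 646 and 538 in DBA/2J, and per kilobase it was the highest of the 10 genes (206 and 161 CPM per kilobase). The 6 h controls held 186, 366 and 215 CPM and 185, 197 and 210, so C57BL/6J replicate 2 stood apart from its group. The rise to 24 h was 1.51 (SE 0.138, edgeR adjusted p = 4.4e-07), without overlap in either strain. Under normoxia the same transcript fell to 8.33, 9.05 and 9.55 CPM and to 21.4, 20.6 and 18.2, counts of 169 to 176 and of 372 to 474 reads. Group means were 81.6-fold lower than the 24 h controls in C57BL/6J and 28.4-fold lower in DBA/2J. Normoxia was also below the 6 h controls, by a log2FC of -4.09 (SE 0.159, edgeR adjusted p = 2.25e-10). Normoxia-hyperoxia libraries held 324, 282 and 392 CPM and 256, 307 and 363. Their means were 37.1-fold and 15.4-fold above normoxia (log2FC 4.54, SE 0.109, edgeR adjusted p = 6.32e-14). They lay below every 24 h control library of their strain (log2FC -1.02, SE 0.0964, edgeR adjusted p = 2.55e-07).

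**Figure D2:**
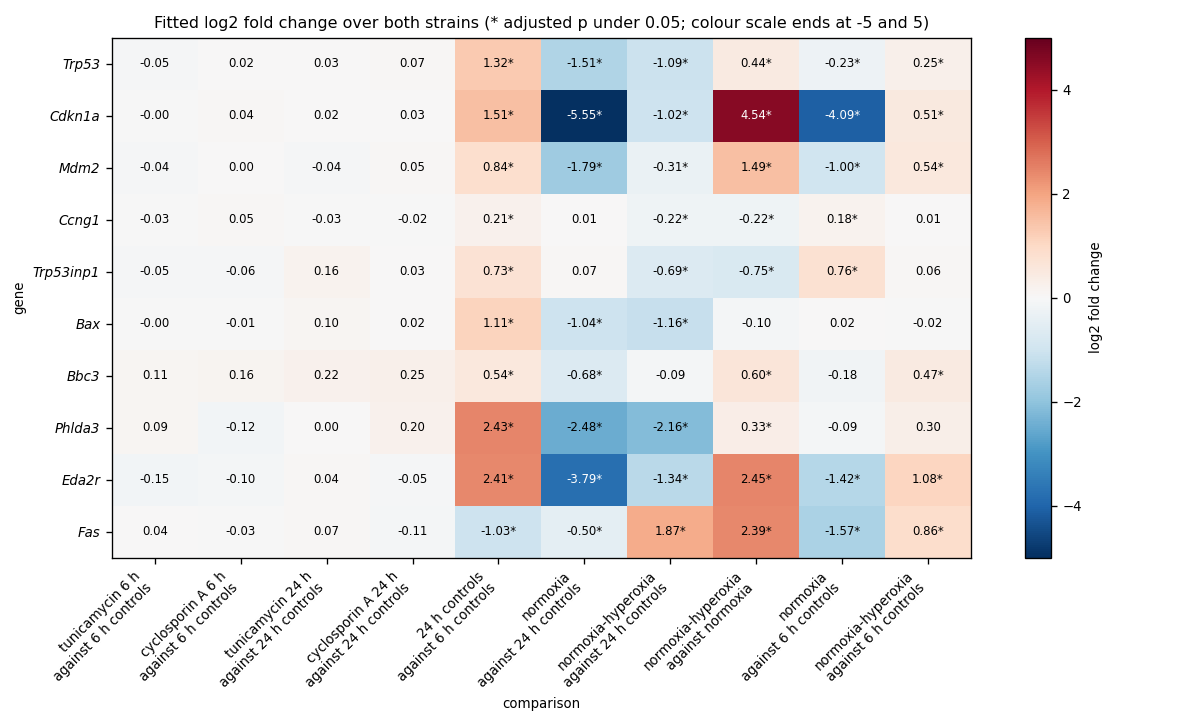
Heat map of the log2 fold change over both strains (colour and printed value) for each of the 10 genes (rows) in the 10 comparisons (columns), with a star at an edgeR adjusted p under 0.05 and colours that end at -5 and 5. Cdkn1a ranges from -5.55 (normoxia against 24 h controls) to 4.54 (normoxia-hyperoxia against normoxia), and all drug values lie between -0.15 and 0.25.

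Trp53inp1, a stress-induced nuclear protein that promotes phosphorylation of p53, followed another order of groups. C57BL/6J held 14.5, 15.3 and 15.9 CPM in 6 h controls, 30.2, 28.6 and 31.9 in 24 h controls, 29.2, 31.5 and 28.8 under normoxia and 17.5, 16.2 and 20.1 under normoxia-hyperoxia. DBA/2J held 19.8, 24.3 and 23.4, then 36.4, 29.4 and 30.6, then 33.7, 34.5 and 33.8, then 21.7, 22.6 and 19.2. Normoxia thus overlapped the 24 h controls in both strains (log2FC 0.07, SE 0.0622, edgeR adjusted p = 0.282). Scaling by library totals gave -0.20 there (edgeR adjusted p = 0.00975), and leaving out DBA/2J 24 h control replicate 1 gave 0.13 (edgeR adjusted p = 0.0414). Normoxia-hyperoxia was lower than normoxia by a log2FC of -0.75 (SE 0.0679, edgeR adjusted p = 7.63e-08), without overlap. In each strain, every 24 h control and normoxia library lay above every 6 h control and normoxia-hyperoxia library.

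Bax, Bbc3 and Phlda3 stand on the apoptosis side of the pathway. Bax, the effector that permeabilizes the outer mitochondrial membrane, held 92, 94.3 and 96.3 CPM in C57BL/6J 24 h controls and 91.8, 85.1 and 80.2 in DBA/2J. In the 6 h control, normoxia and normoxia-hyperoxia groups every library lay between 33.1 and 52.2 CPM. The rise with time was 1.11 (SE 0.0586, edgeR adjusted p = 7.63e-10). Normoxia and normoxia-hyperoxia were lower than the 24 h controls by log2FC of -1.04 and -1.16 (edgeR adjusted p = 4.79e-11 and 8.27e-10), and did not differ detectably from each other (-0.10, SE 0.0688, edgeR adjusted p = 0.214). Bax overlaps the protein-coding gene Gm45808 on the same strand, so its counts carry that uncertainty.

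Phlda3, a repressor of the survival kinase AKT that competes with it for membrane lipids, was high in the 24 h control and drug groups. It stood at 23.8, 25 and 23.6 CPM in C57BL/6J 24 h controls and at 23.1, 19.5 and 26.4 in DBA/2J, and between 3.19 and 6.12 CPM in all libraries of the 6 h control and oxygen groups. The rise with time of 2.43 (SE 0.127, edgeR adjusted p = 7.2e-10) was close to that of Eda2r (2.41), and both exceeded those of the other 8 genes. Against 24 h controls, normoxia gave -2.48 (SE 0.109, edgeR adjusted p = 5.09e-12) and normoxia-hyperoxia -2.16 (SE 0.0911, edgeR adjusted p = 7.37e-11). Normoxia-hyperoxia was 0.33 above normoxia (SE 0.129, edgeR adjusted p = 0.03). That call was lost without the low-count filter (edgeR adjusted p = 0.0692). It was also lost on leaving out any 1 of 8 libraries: C57BL/6J normoxia replicates 1 and 2, DBA/2J normoxia replicate 2, C57BL/6J normoxia-hyperoxia replicates 1 and 2 and each DBA/2J normoxia-hyperoxia replicate. The edgeR adjusted p without them lay between 0.0509 and 0.0853.

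Bbc3, which encodes the BH3-only protein PUMA, was low throughout. Its libraries held 10.9, 7.18 and 7.64 CPM in C57BL/6J 24 h controls and 4.98, 4.62 and 4.26 at 6 h. In DBA/2J they held 7.54, 10.1 and 6.9 at 24 h and 6.34, 7.31 and 7.53 at 6 h, so the times overlapped in that strain. The mean rise was 0.54 (SE 0.135, edgeR adjusted p = 0.0024), with 0.88 in C57BL/6J and 0.19 in DBA/2J (edgeR adjusted p = 0.00126 and 0.388), and the difference between the strains did not pass (-0.69, SE 0.27, edgeR adjusted p = 0.286). Normoxia was lower than the 24 h controls (log2FC -0.68, SE 0.135, edgeR adjusted p = 0.000248), and normoxia-hyperoxia was higher than normoxia (0.60, SE 0.123, edgeR adjusted p = 0.000377).

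Eda2r and Fas, both of the TNF receptor family, moved in opposite directions with time and for normoxia-hyperoxia against 24 h controls, and in the same direction in the other 4 comparisons of time and oxygen. Eda2r, the receptor of ectodysplasin A2, was the least abundant of the 10 genes per kilobase, at 0.0777 CPM in C57BL/6J normoxia. It held 11.3, 15.5 and 15.1 CPM in C57BL/6J 24 h controls and 9.3, 6.42 and 7.51 in DBA/2J, against 1.48, 3.27 and 3.01 and 1.62, 0.971 and 1.71 at 6 h (log2FC 2.41, SE 0.195, edgeR adjusted p = 4.65e-08). Normoxia libraries held 0.615, 0.428 and 0.329 CPM and 0.723, 1.11 and 1.55, from counts of 13, 8 and 6 reads and of 16, 20 and 35. The fall against the 24 h controls was -3.79 (log2FC, SE 0.194, edgeR adjusted p = 3.27e-11). Normoxia-hyperoxia libraries held 3, 3.72 and 5.82 CPM and 4.4, 2.97 and 4.3, above normoxia without overlap (2.45, SE 0.247, edgeR adjusted p = 2.6e-07) and below the 24 h controls (-1.34, SE 0.168, edgeR adjusted p = 4.51e-06).

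Fas, the death receptor for Fas ligand, was the only gene of the 10 that fell from 6 h to 24 h and the only one that was higher under normoxia-hyperoxia than in 24 h controls. Its 6 h controls held 23.4, 31.7 and 27.2 CPM in C57BL/6J and 19.5, 20.5 and 19.3 in DBA/2J, and its 24 h controls 10.6, 12.7 and 13.2 and 10.9, 11.3 and 10.8 (log2FC -1.03, SE 0.0884, edgeR adjusted p = 8.82e-08). Normoxia gave 8.04, 9.32 and 7.85 CPM and 6.19, 7.19 and 9.09, lower than the 24 h controls by a log2FC of -0.50 (SE 0.105, edgeR adjusted p = 0.000381), or by -0.77 with scaling by library totals. The highest values were those of normoxia-hyperoxia, at 45.3, 45.7 and 44.7 CPM and at 31.9, 44.2 and 44.5. They exceeded every 24 h control and normoxia library, by 1.87 (SE 0.0897, edgeR adjusted p = 2.24e-10) and 2.39 (SE 0.105, edgeR adjusted p = 1.87e-11). A short noncoding gene on the same strand, Gm27818, lies within Fas. Leukocytes also express Fas. Their marker sums, given above, were lower under normoxia than in the other 3 conditions in DBA/2J, and lower than in 24 h controls and under normoxia-hyperoxia in C57BL/6J. In DBA/2J they were 146 to 155 CPM under normoxia-hyperoxia, above 113 to 130.0 in 24 h controls, while in C57BL/6J 74.5 to 92.8 overlapped 82.2 to 95.8. Their part in the result was not tested.

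Set against the 6 h controls, the oxygen conditions gave a different split. Normoxia was lower for 5 of the 10 genes and higher for 2 (Trp53inp1 0.76, Ccng1 0.18), where 65.8% of all genes changed. The lower ones were Cdkn1a, Fas (-1.57), Eda2r (-1.42), Mdm2 (-0.997) and Trp53 (-0.23). Normoxia-hyperoxia was higher for 6 and lower for 0, where 44.9% of all genes changed and 22.4% were higher (edgeR). An unadjusted p under 0.05 was found for 6 of the 10 and for 51.7% of all genes. Only Mdm2 and Fas, 2 of the 10, were higher without overlap in both strains, where 11.7% of all genes were. For normoxia against 6 h controls these counts were 2 higher and 3 lower (22.3% and 22.9% of all genes). The 6 genes higher under normoxia-hyperoxia than in 6 h controls were Eda2r (1.08), Fas (0.86), Mdm2 (0.54), Cdkn1a (0.51), Bbc3 (0.47) and Trp53 (0.25). The Cdkn1a call in that comparison (edgeR adjusted p = 0.0192) was lost without C57BL/6J 6 h control replicate 3 or without DBA/2J normoxia-hyperoxia replicate 3 (edgeR adjusted p = 0.0509 and 0.0526). The oxygen groups differ from the 6 h controls in time and in the set that their titles name, as well as in their oxygen label. The comparisons share the control libraries, and normoxia or normoxia-hyperoxia libraries recur in several, so they are not independent of each other.

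Neither drug changed any of the 10 genes detectably. The edgeR test called 0 of 10 for tunicamycin at 6 h and at 24 h and for cyclosporin A at 6 h and at 24 h, 0 of 10 had an unadjusted p under 0.05 in any of the 4, and DESeq2's Wald test also called 0. Of all genes, 1.7% and 12.9% had an unadjusted p under 0.05 with tunicamycin at 6 h and 24 h, and 4.44% and 6.56% with cyclosporin A. DESeq2 called 0 and 527 genes with tunicamycin and 51 and 22 with cyclosporin A. Over all genes, 1.38% changed with tunicamycin at 24 h and 0% in the other 3 comparisons. In DBA/2J alone, tunicamycin at 24 h raised 0.201% of all genes and lowered 0.0355%, and in C57BL/6J alone 0%, with 0 of the 10 in either strain. None of the 10 separated from the controls in both strains, that is 0 of 10 in each of the 4 comparisons. Of all genes, 0.0725% were higher and 0.0906% lower without overlap with tunicamycin at 6 h, and 1.27% and 1.6% at 24 h. With cyclosporin A these shares were 0.218% and 0.345% at 6 h and 0.42% and 0.87% at 24 h. The log2FC lay between -0.15 and 0.11 and between -0.12 and 0.16 at 6 h, and between -0.04 and 0.22 and between -0.11 and 0.25 at 24 h, for tunicamycin and cyclosporin A in turn. The largest of them was that of Bbc3 with cyclosporin A at 24 h (0.25, SE 0.147, edgeR adjusted p = 0.825). With tunicamycin at 24 h, Cdkn1a averaged 725 CPM ± 29 (C57BL/6J) and 593 ± 102 (DBA/2J), and 729 ± 40 and 596 ± 62 with cyclosporin A, beside 733 ± 6.9 and 570 ± 66 in the controls (SD, n = 3). Its difference from the 24 h controls was 0.02 (SE 0.0738) and 0.03 (SE 0.0648). No interaction of strain with drug passed for any of the 10 (edgeR, 0 called), and 0% of all genes had one in each of the 4 comparisons. A single one of them, that of Fas with tunicamycin at 24 h, had an unadjusted p under 0.05 (0.50, SE 0.222, edgeR adjusted p = 0.999).

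The strains differed in how far the genes fell under normoxia. Against 24 h controls, the fall was smaller in DBA/2J for Cdkn1a (-6.35 in C57BL/6J and -4.75 in DBA/2J), Eda2r (-4.89 and -2.69), Bax (-1.36 and -0.73) and Trp53 (-1.76 and -1.27). Ccng1 moved in opposite directions as given above, though not with scaling by library totals. These 5 of the 10 had a strain difference in effect at an edgeR adjusted p under 0.05, where 17% of all genes tested did. The difference, DBA/2J minus C57BL/6J, was 1.60 for Cdkn1a (SE 0.139, edgeR adjusted p = 9.08e-06), 2.2 for Eda2r (SE 0.421, edgeR adjusted p = 0.0028) and 0.63 for Bax (SE 0.11, edgeR adjusted p = 0.00157). Those of Trp53 (0.49, edgeR adjusted p = 0.0148) and Ccng1 (0.46, edgeR adjusted p = 0.00923) were lost on leaving out C57BL/6J 24 h control replicate 3 or DBA/2J 24 h control replicate 2 or 3, with values of 0.31 to 0.43 (edgeR adjusted p from 0.0617 to 0.12) and of 0.29 to 0.37 (0.0709 to 0.0865). The Trp53 difference also did not pass with scaling by library totals (edgeR adjusted p = 0.0541). For Mdm2 the difference was 0.04 (SE 0.0908, edgeR adjusted p = 0.8).

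**Figure D3:**
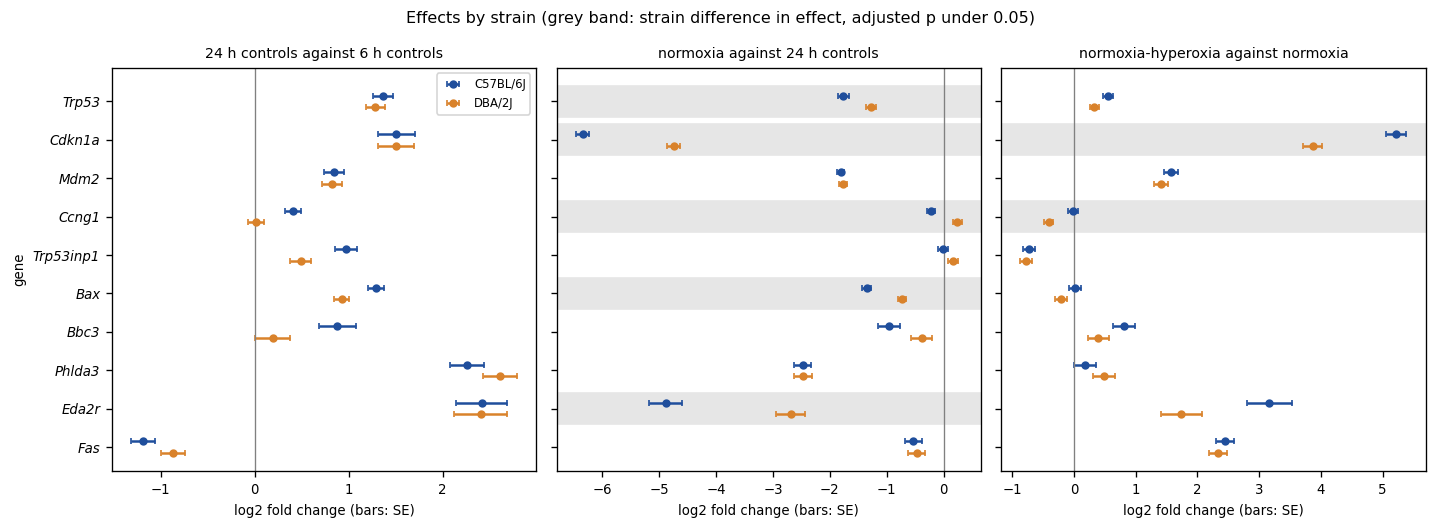
Log2 fold change (x axis, bars SE) of each of the 10 genes by strain for 24 h against 6 h controls, normoxia against 24 h controls and normoxia-hyperoxia against normoxia (edgeR), with a grey band where the strains differ at an adjusted p under 0.05. In the normoxia panel Cdkn1a is at -6.35 for C57BL/6J and at -4.75 for DBA/2J.

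Normoxia-hyperoxia against normoxia gave the opposite sign. Cdkn1a rose by 5.22 in C57BL/6J and by 3.87 in DBA/2J (difference -1.36, SE 0.198, edgeR adjusted p = 0.000582), and Ccng1 gave -0.02 and -0.41 (difference -0.39, SE 0.111, edgeR adjusted p = 0.0242). These were 2 of the 10, where 18.2% of all genes had such a difference. The Ccng1 difference was lost without any 1 of 7 libraries: C57BL/6J normoxia replicate 3, DBA/2J normoxia replicates 1 and 2, C57BL/6J normoxia-hyperoxia replicates 1 and 3 and DBA/2J normoxia-hyperoxia replicates 2 and 3 (edgeR adjusted p from 0.0507 to 0.0936). It was also lost with scaling by library totals (0.192), without the low-count filter (0.168) and in 1 fit of all 48 libraries (0.0571). Without the filter, Eda2r passed in its place (-1.36, edgeR adjusted p = 0.0359). Both comparisons use the same normoxia libraries. Against 6 h controls, normoxia gave -4.87 for Cdkn1a in C57BL/6J and -3.31 in DBA/2J (difference 1.56, SE 0.294, edgeR adjusted p = 0.0154), 1 of the 10 where 3.66% of all genes had such a difference. Eda2r missed the threshold there (2.15, SE 0.57, edgeR adjusted p = 0.0502). It passed without the low-count filter (2.08, edgeR adjusted p = 0.00368), with the replicate block (2.06, 0.0331), with DESeq2 (2.14, 0.0163) and in 1 fit of all 48 libraries (2.12, 0.0154). Trp53inp1 passed with scaling by library totals alone (-0.53, edgeR adjusted p = 0.0341). The time comparison gave 0 of 10 (0.69% of all genes). At an unadjusted p under 0.05 it gave 4 of 10, beside 13.2% of all genes, and DESeq2 called 1 (Ccng1), beside 360 of 16962 genes. Normoxia-hyperoxia gave 0 of 10 against 24 h controls (1.43% of all genes) and 0 of 10 against 6 h controls (0.232%), and DESeq2 called 0 in both (686 and 271 of all genes). At an unadjusted p under 0.05 these gave 3 of 10 beside 15.4% of all genes and 4 of 10 beside 9.93%.

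The strains were also compared within each condition. Cell class marker sums differed between the strains under normoxia as well, as given above, and their part in these differences was not tested. Under normoxia, 7 of the 10 genes were higher in DBA/2J and 0 lower, where 46.8% of all genes differed and 28.3% were higher. They were Eda2r (1.35), Cdkn1a (1.24), Bbc3 (0.52), Bax (0.49), Trp53 (0.46), Ccng1 (0.41) and Trp53inp1 (0.27), all as log2 DBA/2J minus C57BL/6J. The Cdkn1a difference had an SE of 0.151 and an edgeR adjusted p of 1.48e-05, and the strains did not overlap. The calls for Trp53inp1, Bbc3 and Eda2r were each lost without single libraries: without any 1 of 6 (edgeR adjusted p from 0.0506 to 0.0872), of 4 (0.0652 to 0.0886) and of 2 (0.0509 and 0.0717). For Trp53inp1 these were C57BL/6J normoxia replicates 1 and 3, each DBA/2J normoxia replicate and C57BL/6J normoxia-hyperoxia replicate 1, for Bbc3 replicates 1 and 3 of normoxia in both strains, and for Eda2r replicate 3 of normoxia in both strains. The Trp53inp1 and Bbc3 calls were also lost with scaling by library totals (edgeR adjusted p = 0.125 and 0.0572), without the low-count filter (0.365 and 0.103) and in 1 fit of all 48 libraries (0.277 and 0.121).

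In 6 h controls, 5 of the 10 differed (26.2% of all genes). Trp53inp1 (0.58), Bbc3 (0.63), Ccng1 (0.35) and Bax (0.24) were higher in DBA/2J and Fas (-0.45) lower. The calls of Trp53inp1 and Ccng1 held without each library in turn. Bax lost its call without any 1 of 9 libraries (edgeR adjusted p from 0.0522 to 0.133), all but C57BL/6J 6 h replicate 1 and DBA/2J 24 h replicates 1 and 2. Bbc3 lost its call without 6 h replicate 2 or 3 of either strain (0.0639 to 0.0982), and Fas without C57BL/6J 6 h replicate 2 or DBA/2J 6 h replicate 3 (0.0531 to 0.0787). Bax also lost its call without the low-count filter (edgeR adjusted p = 0.118) and in 1 fit of all 48 libraries (0.0615), while scaling by library totals gave 0.39 (0.00331), and Fas with scaling by library totals (0.0745). In 24 h controls only Eda2r differed (-0.84, SE 0.238, edgeR adjusted p = 0.0203; 22.2% of all genes), and without 24 h replicate 2 or 3 of either strain its edgeR adjusted p was 0.0624 to 0.0796. Under normoxia-hyperoxia only Trp53 differed (0.24, SE 0.0785, edgeR adjusted p = 0.0346; 25.7% of all genes). That call was lost without DBA/2J normoxia replicate 2, C57BL/6J normoxia-hyperoxia replicate 1 or 2, or DBA/2J normoxia-hyperoxia replicate 3 (edgeR adjusted p from 0.0525 to 0.101), and without the low-count filter (0.263). DBA/2J reads were counted on a build derived from C57BL/6J, and the effect of this on levels between the strains was not tested.

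The rest of the pathway was read from 7 lists with 60 further genes, of which 58 or 59 were tested in each of these comparisons. The genes named are the largest rises and falls that passed the test among those with a mean log2 CPM of at least 1, and values are log2FC over both strains. No rule set which single lists have their counts given below, and those of the other lists are left out. From 6 h to 24 h, 28 of 59 rose and 13 fell, where 34.7% of all genes rose and 37.4% fell. The rises were led by the checkpoint kinase Chek1 (2.05), the G2 and S phase protein Gtse1 (1.91) and the nuclease Aen (1.74). The largest falls were those of the glutathione peroxidase Gpx1 (-1.57), the antiproliferative gene Btg2 (-1.47) and the autophagy gene Dram1 (-1.20). Against the same background, 4 of 5 partners of p21 rose and 0 fell, 4 of 6 death receptor partners rose and 1 fell, and 7 of 14 growth arrest and DNA repair targets rose and 4 fell. The median over the 59 was 0.21.

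Under normoxia against 24 h controls, 34 of 58 were lower and 17 higher, with a median of -0.44, where 39.7% of all genes were lower and 42.4% higher. The cell cycle arrest gene Sfn (14-3-3 sigma, -5.93), the stress hormone Gdf15 (-4.77) and the polo-like kinase Plk2 (-4.55) were the lowest, in the same range as Cdkn1a. Against those shares, growth arrest and DNA repair targets were lower for 10 of 14 and higher for 3. Gpx1 (1.86), the sestrin Sesn1 (1.49) and Pidd1 (1.46), a platform for caspase-2, were the highest. All 6 of these named changes had SE between 0.0803 and 0.143.

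In normoxia-hyperoxia against normoxia, 29 of 58 were higher and 20 lower, with a median of 0.23, where 37% of all genes were higher and 36.5% lower. Sfn (5.53), Gdf15 (4.62) and Btg2 (4.36) were highest, and the BH3-only gene Bid (-2.11), Gpx1 (-1.56) and Pidd1 (-1.35) lowest. Of the BCL2 family partners 4 of 6 were higher and 2 lower, beside the same shares. Against 24 h controls, normoxia-hyperoxia gave 12 of 59 higher and 28 lower, with a median of -0.18, where 34.1% of all genes were higher and 34.1% lower. Btg2 (1.88), Dram1 (1.38) and the ferredoxin reductase Fdxr (1.29) were highest, and Gtse1 (-1.51), the RNA-binding protein gene Zmat3 (-1.48) and Aen (-1.43) lowest. Beside these shares, apoptosis and autophagy targets were lower for 6 of 9 and higher for 1.

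Against 6 h controls, normoxia gave 18 of 58 higher and 26 lower, where 32.9% of all genes were higher and 32.9% lower. The named genes ran from Gdf15 (-5.28), Sfn (-5.02) and Plk2 (-4.35) to Pidd1 (1.25), Bid (0.90) and Sesn1 (0.80). Normoxia-hyperoxia gave 18 of 59 higher and 11 lower, where 22.4% of all genes were higher and 22.5% lower. The named genes ran from Gpx1 (-1.27), Bid (-1.17) and the BH3-only gene Pmaip1 (-0.89) to Sesn1 (0.62) and the BH3-only gene Bcl2l11 (1.18). With the drugs, the sestrin Sesn2 was the only listed gene that changed, and it rose with tunicamycin at 24 h (0.36, SE 0.0531, edgeR adjusted p = 0.00608). That is 1 of 59 listed genes, where 1.38% of all genes changed and 0.97% rose.

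**Figure D4:**
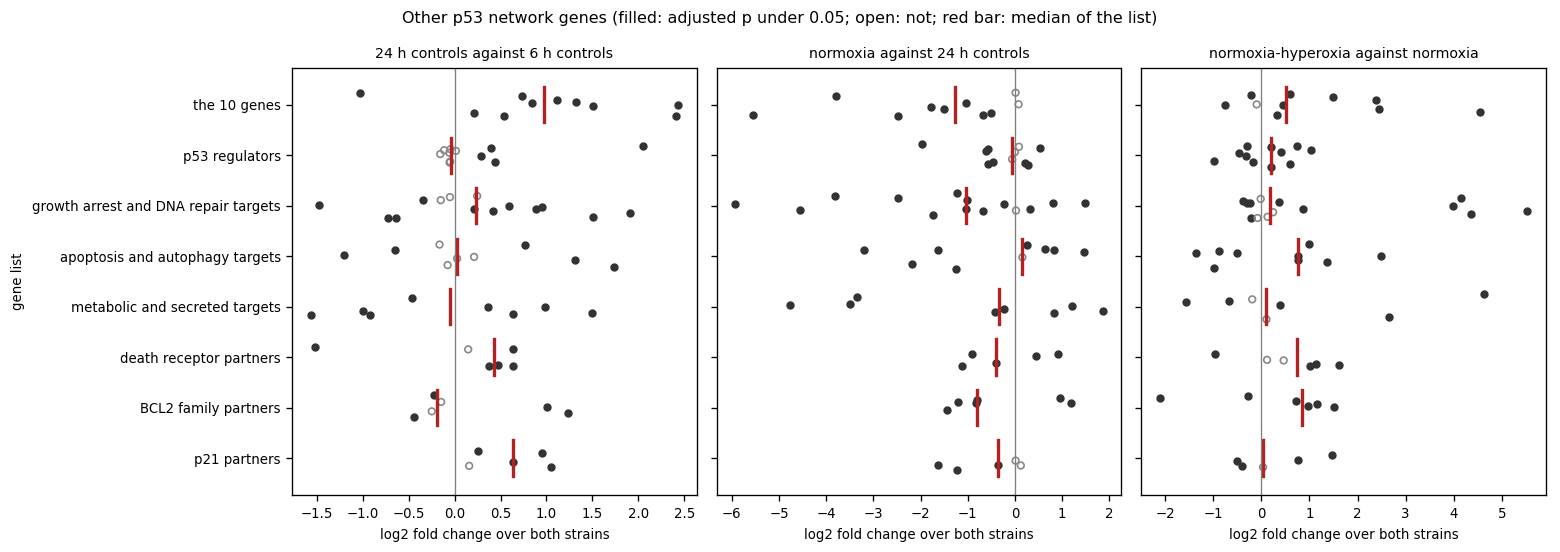
Log2 fold change of each tested gene of the p53 lists over both strains, by list, for 24 h against 6 h controls, normoxia against 24 h controls and normoxia-hyperoxia against normoxia (edgeR); filled points passed an adjusted p of 0.05, open points did not, and red bars are list medians. Values run from -5.93 (Sfn, normoxia against 24 h controls) to 5.53 (Sfn, normoxia-hyperoxia against normoxia).

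Across the 16 group means of log2 CPM, the 10 genes did not move as one. Pearson's r was 0.976 between Trp53 and Phlda3, 0.973 between Trp53 and Bax and 0.958 between Bax and Phlda3. It was 0.939 between Cdkn1a and Mdm2, 0.721 between Trp53 and Cdkn1a and 0.025 between Cdkn1a and Ccng1, while Trp53inp1 and Fas ran opposite (-0.855). The points share 2 strains and 1 library scaling, so these values describe the groups and carry no test. Among 12233 named genes with a mean log2 CPM of at least 1, those most like Trp53 were Trim28 (0.997) and Tmem43 (0.993). Those most like Cdkn1a were Hmox1 (0.995) and Ppp1r13l (0.994), and those most like Mdm2 were Baz1a (0.990) and Arih2 (0.989).

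In the genome annotation (GENCODE M21 on GRCm38), the 10 genes lie on 8 chromosomes. Trp53 spans chr11:69580359-69591873 and Ccng1 chr11:40748552-40755311, while Bax spans chr7:45461697-45466898 and Bbc3 chr7:16308393-16318205. Cdkn1a spans chr17:29090976-29100727 and overlaps AC167363.2 on the opposite strand. Mdm2 spans chr10:117688875-117710758, Trp53inp1 chr4:11156431-11174379 and Phlda3 chr1:135766119-135769136. Eda2r spans chrX:97333840-97377216 and Fas chr19:34290666-34327772. All counts are over whole genes, so isoforms were not told apart.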

How the data were processed

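Stranded mRNA libraries were made from total RNA, per the labels' protocols. The authors deposited whole-number counts per Ensembl gene, 1 column per library, without normalization. Reads were processed with bcl2fastq 2.20.0, FastQC 0.11.8, STAR 2.7.9a and featureCounts 1.5.1 on GRCm38, per the submitters' processing notes. The annotation release and strand setting are not given in the sources used here, so antisense and overlapping genes carry that uncertainty. Symbols matched 55141 of 55487 IDs.

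Each comparison was fitted on its 12 libraries with edgeR 4.0.16 (R 4.3.3, limma 3.58.1): filterByExpr, TMM factors, 1 mean per group and a robust quasi-likelihood F test, adjusted by Benjamini-Hochberg over all genes tested. No adjustment was made across the 44 contrasts. SE was derived from the fold change and F. CPM are counts over library totals times TMM factors of all 48 libraries. Levels per kilobase use the union of exons. The steps were run on simulated counts in which few genes changed. Many genes changed in the time and oxygen comparisons, so that run does not test the scaling there. Depth limits Eda2r most.

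The 10 genes and the lists were chosen with earlier results of these data known. Other pathway genes are named by a rule: at most the 3 largest rises and 3 largest falls per comparison among listed genes past an adjusted p of 0.05 with a mean log2 CPM of at least 1. A gene that this rule names is not reported here. The alternatives were DESeq2 1.42.0 (Wald test), its size factors (RLE) in edgeR, no filter, 1 fit of all 48 libraries, a replicate block, each library left out and, added after the data were seen, scaling by library totals.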

Additional observations from a re-analysis of the deposited data

Results flagged for a closer look

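The effect of a condition differed between the strains for 5 of the 10 genes in at least 1 comparison, by the edgeR test of the interaction (DBA/2J effect minus C57BL/6J effect, log2 scale). For normoxia against 24 h controls the differences were 0.49 for Trp53, 1.60 for Cdkn1a, 0.46 for Ccng1, 0.63 for Bax and 2.2 for Eda2r. For normoxia-hyperoxia against normoxia they were -1.36 for Cdkn1a and -0.39 for Ccng1. For normoxia against 6 h controls the difference was 1.56 for Cdkn1a. Of all genes, 17%, 18.2% and 3.66% had such a difference in these comparisons. The Trp53 difference and the Ccng1 difference against 24 h controls were each lost without any 1 of 3 libraries of 12, and the Ccng1 difference against normoxia without any 1 of 7 (the libraries are named with those results). The normoxia libraries enter all 3 comparisons. Eda2r counts under normoxia were 6 to 13 reads in C57BL/6J and 16 to 35 in DBA/2J. The share of mitochondrial counts under normoxia was 22.8 to 25.6% in C57BL/6J and 11.8 to 12.8% in DBA/2J, and its part in these differences was not tested. Cell class marker sums, given by strain in the results, also differed under normoxia, and their part was not tested either.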

How the results depend on the processing

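Of the alternatives for fold changes of single genes and for called strain differences, 1366 values kept direction and side of the threshold, 74 lost the call, 1 gained it with the same sign and 21 changed sign. Of these 21, the Ccng1 and Trp53inp1 values with library totals passed the test (edgeR adjusted p = 0.000217 and 0.00975). Strain differences not called in the report are outside this tally. All sign changes concerned effects not called in the report. Ccng1 under normoxia against 24 h controls was 0.01, and -0.0216 with RLE factors and with DESeq2, -0.26 with library totals and -0.0308 in 1 fit of all libraries, with -0.0165 to 0.0454 on leaving out single libraries. Trp53inp1 there was 0.07, and -0.20 with library totals (0.05 to 0.13 without single libraries). Against 6 h controls, Ccng1 under normoxia-hyperoxia was 0.01, and -0.0058 without a filter (-0.0250 to 0.0368), and Bax was -0.02, and 0.0013 with library totals (-0.0621 to 0.0095). Leaving out single libraries gave -0.17 to 0.0064 for Bbc3 (normoxia-hyperoxia against 24 h controls) and -0.16 to 0.0025 for Phlda3 (normoxia against 6 h controls). Scaling by totals moved the median of all genes by 0.21 for time and by -0.27 and -0.17 for normoxia and normoxia-hyperoxia against 24 h controls. The cause of the other shifts was not tested.

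Of the counts of called genes, 389 stayed within 1.5 times and 39 did not. Strain differences in effect numbered 0 for time (1 with DESeq2), 2 for normoxia-hyperoxia against normoxia (1 with library totals, 1 in the fit of all libraries, and 2 without a filter, with Eda2r in place of Ccng1) and 1 for normoxia against 6 h controls (2 with library totals, without a filter, with DESeq2 and in the fit of all libraries). Strain differences numbered 1 in 24 h controls (2 without a filter) and 1 under normoxia-hyperoxia (3 with library totals, 0 without a filter, 2 in the fit of all libraries). Leaving out single libraries gave 0 to 1, 1 to 2 and 1 to 2 for those effects and 3 to 5 for normoxia against 24 h controls, and for strain differences 0 to 2 at 24 h, 2 to 7 at 6 h, 0 to 2 under normoxia-hyperoxia and 4 to 7 under normoxia.

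The replicate block changed none of the 60 fold-change calls. It raised the count of strain differences in effect for normoxia against 6 h controls from 1 to 2, by adding Eda2r (2.06, edgeR adjusted p = 0.0331). Residuals of same-numbered libraries had mean correlations of 0.014 to 0.18 by comparison, and in no comparison did all 6 pairs exceed 0.1. All 3 pairs of a strain did in 6 of 20 sets of strain and comparison. The numbers were not taken to pair the libraries, and for those 6 sets pairing remains possible. Without the shallowest library, 38 of 40 values kept their call. With Eda2r at 6 to 35 reads under normoxia, counting error limits its fold changes.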
